A study of Saccharomyces cerevisiae with 6 samples.

Results

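Budding yeast (Saccharomyces cerevisiae) keeps a second copy of several proteins for growth with little oxygen, and the genes of such isoform pairs were followed here in cultures given azinomycin B, a bacterial metabolite known for linking both strands of DNA. The set holds 10 genes with 1 probe set each, of 9275 probe sets of yeast targets on the array. It contains 3 isoform pairs, each with a hypoxic gene named first: ANB1 and HYP2, COX5B and COX5A, and CYC7 and CYC1. The other 4 genes are AAC3, HEM13, TIR1 and ROX1. AAC3, HEM13 and TIR1 are known to rise when oxygen is low, and ROX1 encodes a repressor of such genes. All were chosen by their annotated name and on their signals and treated minus control differences on these same arrays, so those values, and the fold changes and standard errors fitted to them, are given below as a description and no p-value of the 10 genes is given.

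In air, cells make heme, and heme activates the transcription factor Hap1 and the Hap2/3/4/5 complex, which switch on aerobic genes such as CYC1 and COX5A. Heme also switches on ROX1, whose protein represses hypoxic genes together with the corepressor Tup1-Cyc8. When oxygen runs out, heme and with it Rox1 are lost, and the hypoxic isoforms replace the aerobic ones. The known order is therefore that ROX1 and the aerobic isoforms move one way and the hypoxic genes the other.

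The series has 6 one-colour Affymetrix arrays of total RNA from cultures grown in YPD at 30 °C and 250 rpm to an optical density of 1.0 and then for 6 h more. The control group has 3 arrays without the drug, the second group has 2 arrays at 100 µg/ml azinomycin B and the third has 1 array at 10 µg/ml, which the labels give as the ED50, with the drug added in a little ethanol. Arrays carry the name A100, B100 or 10, with 1 control and 1 treated array of each, and the 2 named 10 are called the 10 µg/ml experiment. The labels give neither a strain nor separate cultures, and for the controls they mention no ethanol, so differences between arrays of a group may be technical.

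Values are MAS5 signals, a summary of brightness per probe set on a linear scale, and differences are on log2(signal + 16), which understates the difference of dim genes. Of the 9275 probe sets, the 25% with the lowest mean log2 value were not tested, which removed those with a mean under about 31.8 and left 6956. Of the 10 genes 9 were tested and AAC3 was not. Signals come from whole cultures, so a larger share of cells using a gene and more RNA in each cell cannot be told apart.

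Array by array, 2 features of the whole series touch these genes. The treated A100 array stood apart from its control far more than the other treated arrays did. In the A100 pair 10.7% of the 6956 probe sets were at least 2-fold higher and 6.12% at least 2-fold lower, against 2.06% and 0.661% in the B100 pair and 2.1% and 2.4% in the 10 pair. The control of the 10 µg/ml experiment also stood apart, at least 2-fold above both other controls at 8.34% of the probe sets and at least 2-fold below both at 5.99%. RNA quality, read from the actin gene ACT1 as its 3' over its 5' signal, gave 2.09 on the treated A100 array, and 1.44 to 2.05 on the other 5 arrays.

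ANB1 encodes the hypoxic isoform of eIF5A, a factor that helps ribosomes through difficult peptide bonds and carries the modified amino acid hypusine. Its control signals were 101 (A100), 124 (B100) and 78.5 (10). It was 1013 and 169 on the A100 and B100 arrays at 100 µg/ml and 71.0 at 10 µg/ml. Both 100 µg/ml arrays lay above all 3 controls, but the A100 array stood far from every other array. In the pairs ANB1 was 3.13 higher (log2) in A100, a difference of 8.78-fold, 0.40 higher in B100 and at -0.12 in the 10 pair. Of all probe sets tested, 99.7% had a smaller or more negative difference than ANB1 in A100 and 82.5% in B100.

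HYP2, the aerobic eIF5A gene, was bright everywhere. Its control signals were 6876, 8452 and 8914. Its treated signals were 7130, 7642 and 6057, the last being the lowest of all 6 and the treated 100 µg/ml arrays lying among the controls. The log2 differences were 0.05 in A100, -0.15 in B100 and -0.56 in the 10 pair. The sign of the A100 value turned with scaling to a common median and that of the B100 value with quantile normalization. On the treated A100 array HYP2 gave 1.04 times its control signal and ANB1 gave 10.01 times its own. The proteins of ANB1 and HYP2 are nearly identical, and cross-hybridization between their probes was not tested.

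**Figure D1:**
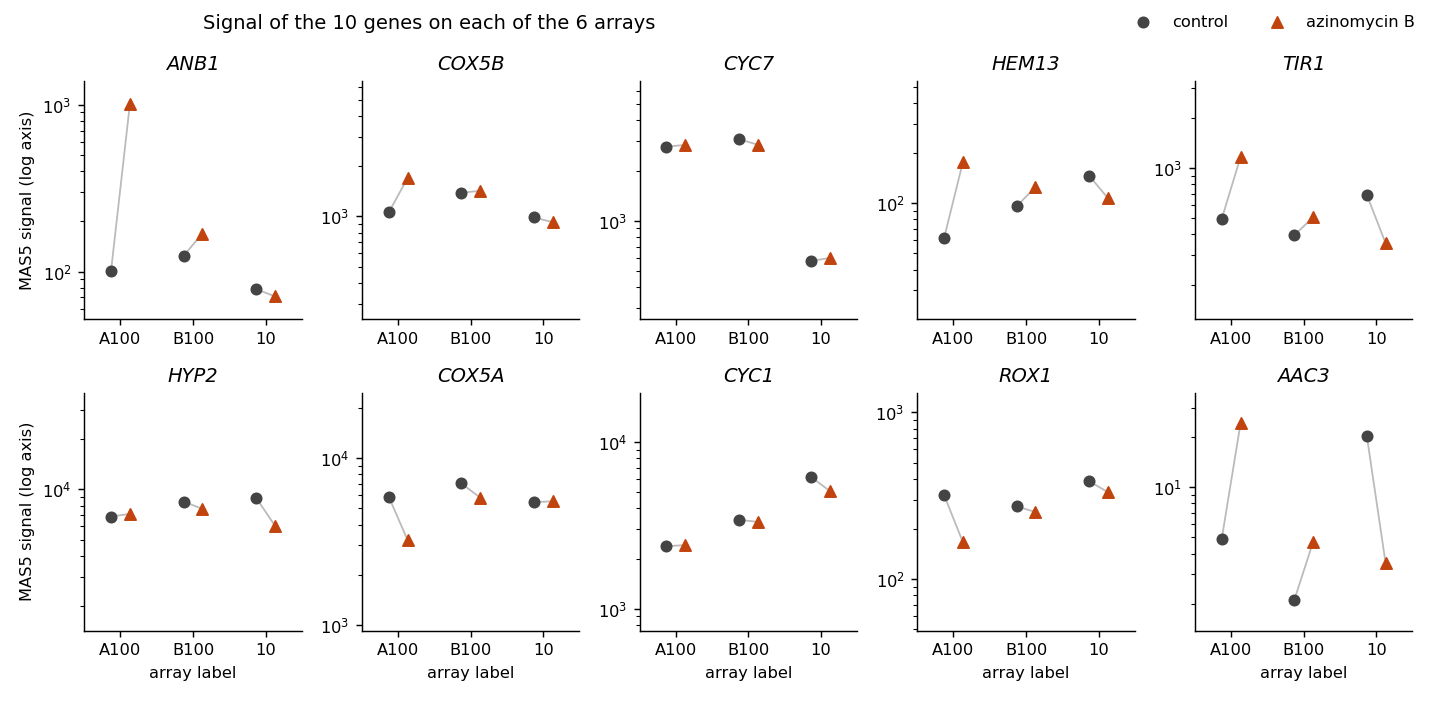
MAS5 signal (log axis, its own range in each panel) of the 10 genes on the control array (grey circle) and the treated array (orange triangle) of each label, joined by a line; each point is 1 array. ANB1 reached 1013 on the treated A100 array, while CYC7 separated the 2 arrays labelled 10 (574 and 600) from the other 4.

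The genes that modify eIF5A were also higher in the A100 pair. The deoxyhypusine synthase gene DYS1, which makes the hypusine precursor, had control signals of 78.1, 63.9 and 354 and treated signals of 280, 94.6 and 343. It was 1.66 higher in the A100 pair, 0.47 higher in the B100 pair and differed by -0.05 in the 10 pair. LIA1, the hydroxylase of the next step, was at 0.84, -0.21 and 0.37. Both were brighter on the 2 arrays of the 10 µg/ml experiment than on the A100 and B100 controls, where ANB1 was dimmer.

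COX5B and COX5A encode the hypoxic and the aerobic form of the same subunit of cytochrome c oxidase, the last complex of the respiratory chain. COX5B had control signals of 1055, 1385 and 985 and treated signals of 1697, 1423 and 924. The 2 arrays at 100 µg/ml lay above all 3 controls, the B100 array by a small margin. COX5B was 0.68 higher in A100, 0.04 higher in B100 and at -0.09 in the 10 pair, and the B100 value turned to -0.13 with scaling to a common median. COX5A had control signals of 5886, 7072 and 5458 and treated signals of 3232, 5814 and 5519, so that the treated A100 array was the lowest of the 6 and the other treated arrays lay within the controls. Its log2 differences were -0.86, -0.28 and 0.02, the last turning to -0.14 with scaling to a common median.

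The other nuclear subunits of cytochrome oxidase went with COX5A. Of the 9 subunit genes, 8 were lower in the A100 pair and COX5B was higher, a split of 8 to 1 under every scaling and pseudocount tried. In the B100 pair 8 of 9 were lower as well, and between 5 and 9 of them under the other settings. The medians of the 9 were -0.42 in A100, -0.19 in B100 and -0.09 in the 10 pair, where the medians of all probe sets tested were 0.03, 0.06 and 0.08. Of all 6956, 3354 were lower and 3589 higher in the A100 pair, and 3004 were lower and 3945 higher in the B100 pair, which stand as the background for the sign counts of every list. COX4 was at -0.72 and -0.15, COX9 at -0.55 and -0.37, COX6 at -0.42 and -0.19, and COX12 at -0.31 in both. COX13 was at -0.47 and -0.13, and at -0.87 in the 10 pair. In the values as deposited no subunit gene differed at least 2-fold in any pair, and none passed the test at 100 µg/ml. With scaling to a common median COX5A was at -1.08 in the A100 pair, past 2-fold.

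CYC7 and CYC1 encode cytochrome c, the small electron carrier that feeds cytochrome oxidase, with CYC7 known to be used more under low oxygen and in stressed cells. CYC7 gave 2785 in the A100 control and 3080 in the B100 control, and 2846 and 2859 on their treated counterparts. In the 10 µg/ml experiment it had 574 in the control and 600 in the treated culture, both below all 4 other arrays. The log2 differences of the pairs were 0.03, -0.11 and 0.06, with the signs of the A100 and the 10 value depending on the scaling. CYC1 went the opposite way between experiments, with 2369 (A100) and 3421 (B100) in the controls, 2408 and 3314 when treated, and 6150 without and 5052 with the drug in the 10 µg/ml experiment. Its pair differences were 0.02, -0.05 and -0.28, the sign of the first turning with scaling to a common median and that of the second with quantile normalization. The control of the 10 µg/ml experiment less the mean of the other 2 controls was -2.32 (log2) for CYC7 and 1.11 for CYC1. These 2 controls differed from each other by 0.14 and 0.53. Of the genes that attach heme to cytochromes c and c1, the heme lyase gene CYC3 was at -0.48 and -0.10 in the A100 and the B100 pair, CYT2 was at -0.17 and 0.40, and CYC2 was at 0.32 and 0.12.

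The isoform shift sets each pair of genes on 1 scale: the log2 change of the hypoxic gene less that of the aerobic gene, which avoids comparing the brightness of different probes. For ANB1 less HYP2 it was 3.08 in A100, 0.54 in B100 and 0.44 in the 10 pair, the last arising from the lower HYP2 signal. With quantile normalization these shifts were 2.86, 0.13 and 0.16, so those of the B100 and 10 pairs depended on the scaling. For COX5B less COX5A it was 1.54, 0.32 and -0.11. For CYC7 less CYC1 it was 0.01, -0.06 and 0.34. The means over the 2 pairs at 100 µg/ml were 1.81 ± 1.80 (SD, n = 2), 0.93 ± 0.86 and -0.03 ± 0.05, so for ANB1 and COX5B the spread between the pairs was about as large as the mean. Between the B100 and A100 controls the 3 shifts were -0.04, 0.12 and -0.38. For the third control against the mean of the A100 and B100 controls they were -0.67, -0.05 and -3.43. The cytochrome c pair thus shifted 10.7-fold between controls, and by at most 1.27-fold in a treated pair, whereas the shifts of the COX5 and eIF5A genes were largest in the A100 pair. ANB1 and CYC1 are next to each other in the reference gene order, and in the A100 pair the first was 8.78-fold and the second 1.02-fold above control.

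**Figure D2:**
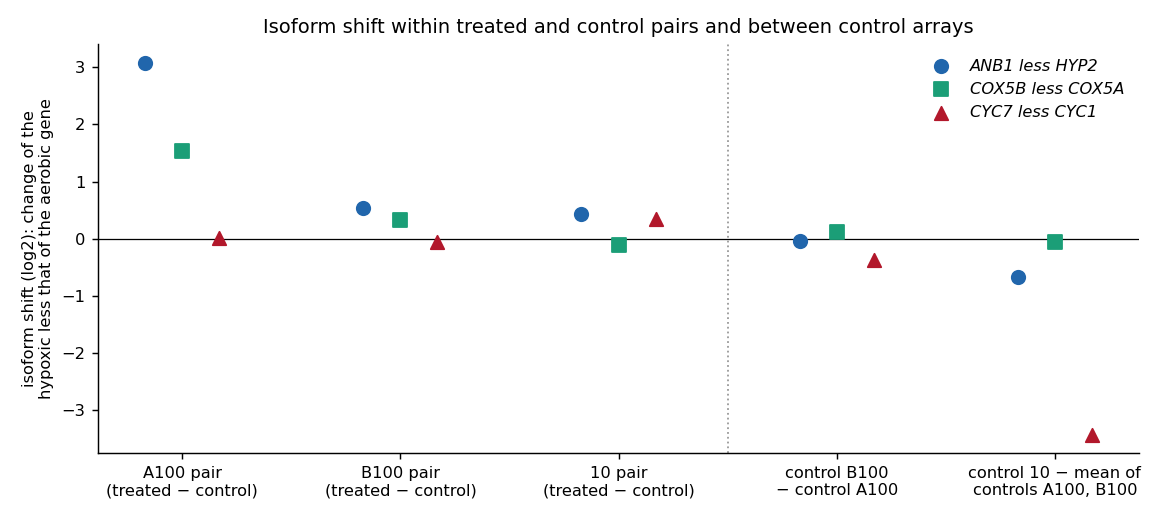
Isoform shift (log2, y axis) of the 3 pairs of genes within each treated and control pair (left of the dotted line) and between control arrays (right); each point is 1 difference, with no error. ANB1 less HYP2 stands at 3.08 in the A100 pair, and CYC7 less CYC1 at -3.43 for the 10 control against the other controls.

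HEM13 encodes coproporphyrinogen oxidase, the oxygen-using step of heme synthesis, and is known to be induced when heme runs short. Its control signals were 61.7, 96.0 and 146, and its treated signals were 177, 125 and 107. The groups overlapped, since the B100 array lay under the control of the 10 µg/ml experiment. In the pairs HEM13 was 1.31 higher in A100, which is 2.48-fold, 0.33 higher in B100 and at -0.40 in the 10 pair. The signals are dim, and with a pseudocount of 64 the A100 value was 0.94, under 2-fold.

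The other enzymes of the pathway had values of the other sign on the A100 array. Of the 8 heme synthesis genes, 7 were lower in the A100 pair and HEM13 was higher, under every scaling and pseudocount tried, with a median of -0.60. HEM3, porphobilinogen deaminase, was at -2.15, with control signals of 840, 533 and 551 and treated signals of 177, 469 and 628. HEM1, which makes the first precursor in mitochondria, was at -1.15, HEM2 at -0.94 and the ferrochelatase gene HEM15 at -0.89. In the B100 pair 4 of the 8 were higher and 4 lower, or 6 lower with scaling to a common median, and HEM3, HEM1, HEM2 and HEM15 were at -0.18, -0.18, 0.19 and 0.05. None passed the test at 100 µg/ml.

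**Figure D3:**
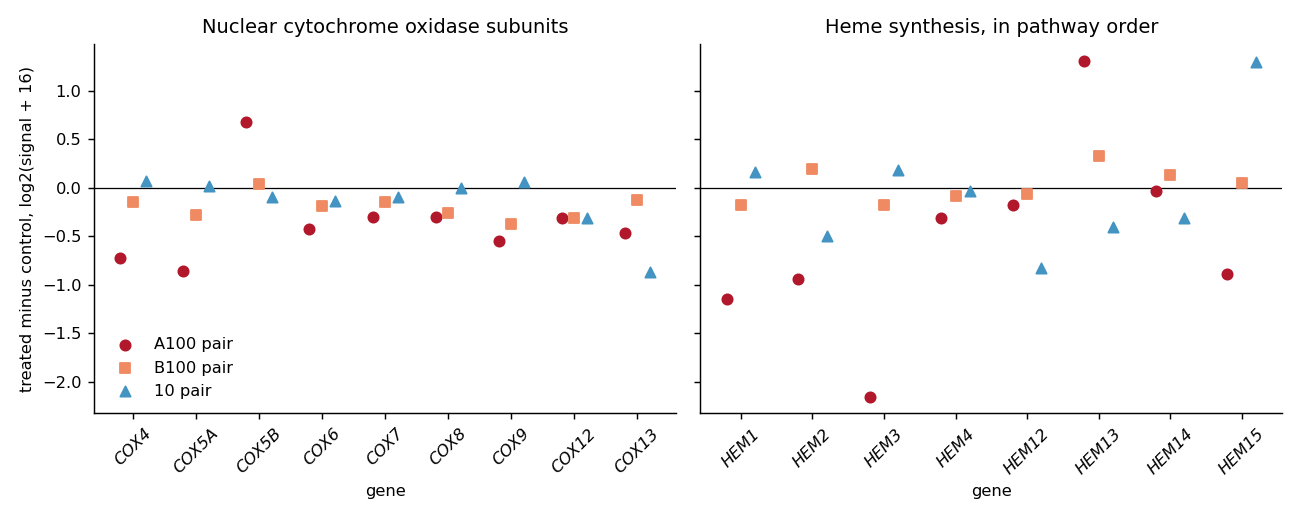
Treated minus control difference (log2(signal + 16), y axis) of the 9 nuclear cytochrome oxidase subunit genes (left) and of the 8 heme synthesis genes in pathway order (right) in the A100 (circles), B100 (squares) and 10 (triangles) pairs, each point being 1 pair. In the A100 pair COX5B (0.68) and HEM13 (1.31) lie above 0 and all other genes shown lie below it. The COX5B value of the B100 pair turns negative with scaling to a common median.

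TIR1 encodes a mannoprotein of the cell wall that is made in cold or anaerobic cultures. It had control signals of 495, 394 and 692 and treated signals of 1165, 508 and 354. The A100 array was above and the 10 µg/ml array below all controls, and the B100 array lay among them. The log2 differences were 1.21 in A100, 0.35 in B100 and -0.93 in the 10 pair, the lowest of the tested genes there: 3.0% of the probe sets were lower. The A100 value was 0.99 with scaling to a common median. Its relatives were measured by 4 further tested genes, of which TIR3 was at 0.44, 0.33 and -0.16, DAN4 at 0.23, 0.14 and 0.42, TIR4 at -0.11, 0.40 and -0.08, and TIR2 at -0.04, -0.09 and -0.07. DAN1 was below the filter, with 13.9 to 27.0 on the 6 arrays.

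AAC3, the hypoxic ADP/ATP carrier of the mitochondrial membrane, was near the bottom of the scale on every array, with 4.9, 2.1 and 20.4 in the controls and 24.2, 4.7 and 3.5 in the treated cultures. Such signals lie near or under the constant of 16 added before taking logs, and no difference is drawn from them. The 2 other carrier genes were bright. PET9, the main carrier, was at -0.49, -0.17 and 0.08 in the 3 pairs, and AAC1 at -1.33, -0.53 and -0.37, with signals of 2361, 3094 and 2996 in the controls and 932, 2143 and 2321 when treated. AAC1 was lower on each treated array than on its control.

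ROX1 had control signals of 319, 273 and 386 and treated signals of 166, 253 and 332. Both 100 µg/ml arrays lay under all 3 controls, with log2 differences of -0.88 in A100 and -0.11 in B100, and the 10 pair was at -0.21. For ROX1 the A100 value was -1.05 with quantile normalization and -1.08 with scaling to a common median, past 2-fold. Its probe set, number 7685, lies in a range of numbers (7600 to 8500) where low values cluster on the treated A100 array: 12.7% of the 748 tested probe sets there were at least 2-fold lower in the A100 pair, against 5.33% of the others. In the B100 pair these shares were 0.668% and 0.660%. The part of this clustering in the ROX1 value was not tested.

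**Figure D4:**
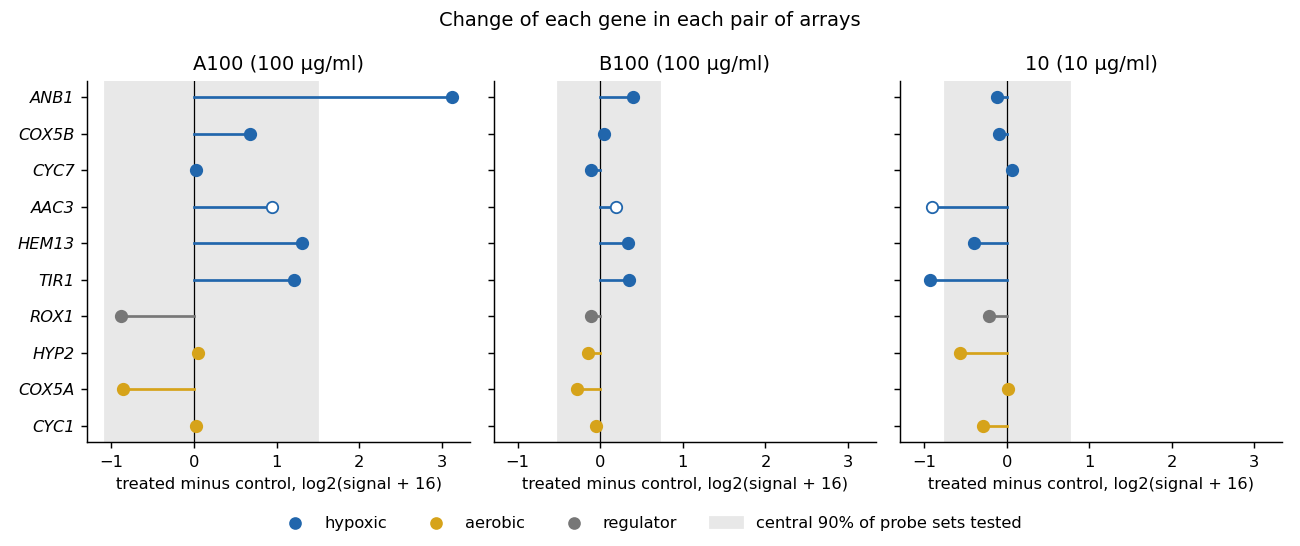
Treated minus control difference (log2(signal + 16), x axis) of the 10 genes (y axis) in the 3 pairs of arrays, coloured by class; each point is 1 pair, the grey band holds the central 90% of the probe sets tested and the open circle marks AAC3, which was below the filter. ANB1 at 3.13 in A100 and TIR1 at -0.93 in the 10 pair lie outside the bands among the tested genes, and in B100 every gene lies within. The signs of HYP2, COX5B, COX5A, CYC7 and CYC1 turn in 1 or 2 pairs with another scaling.

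Counted over the 9 tested genes, 3 (ANB1, HEM13 and TIR1) were at least 2-fold higher in the A100 pair, where 10.7% of all probe sets were, and 0 were at least 2-fold lower, beside 6.12%. The 3 became 2 with a pseudocount of 64, without HEM13, and 2 with scaling to a common median, without TIR1. In the B100 pair 0 were 2-fold higher or lower, beside 2.06% and 0.661%, and in the 10 pair likewise 0, beside 2.1% and 2.4%. With scaling to a common median ROX1 and COX5A were at least 2-fold lower in the A100 pair, and with quantile normalization ROX1 was. TIR1 was at least 2-fold lower in the 10 pair with either. Both 100 µg/ml arrays lay above all controls for 2 genes, ANB1 and COX5B, beside 12.3% of all probe sets, and below them for ROX1, beside 7.58%. Both arrays of the 10 µg/ml experiment lay below all 4 others for ANB1, COX5B and CYC7, beside 18.9%, and above them for CYC1 and ROX1, beside 19.6%. Differences were positive in both 100 µg/ml pairs and negative in the 10 pair for ANB1, COX5B, HEM13 and TIR1, beside 12.1% of all probe sets, and the reverse for COX5A, beside 13.4%. The control of the 10 µg/ml experiment was at least 2-fold below both others for CYC7, beside 5.99%, and at least 2-fold above both for none of the 9, beside 8.34%. Since the genes were chosen with these values known, nothing is read from the counts.

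In the limma fit of group means over all 6 arrays, the log2 fold change at 100 µg/ml against the 3 controls was 1.91 (SE 0.69) for ANB1, -0.62 (SE 0.31) for ROX1, 0.57 (SE 0.44) for TIR1, 0.55 (SE 0.38) for HEM13, -0.49 (SE 0.32) for COX5A and 0.46 (SE 0.28) for COX5B. Without the treated A100 array these were 0.67 for ANB1, -0.34 for ROX1, -0.02 for TIR1, 0.33 for HEM13, -0.07 for COX5A and 0.33 for COX5B. CYC7 was at 0.73 (SE 0.72) against all controls and at -0.04 against those of its own experiment, where CYC1 moved from -0.38 (SE 0.43) to -0.01. At 10 µg/ml CYC7 was at -1.49 (SE 0.91) against all controls and 0.06 against its own. No probe set on the array passed an adjusted p of 0.05 in limma at 100 or at 10 µg/ml (0.0% of 6956 in each), and 3.34% and 4.18% had an unadjusted p under 0.05 there. The fold changes and SEs of the 9 genes come from that fit and describe the arrays they were chosen on.

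Regulators of the oxygen response were mostly lower on the A100 array and not on the B100 array. Of 13 tested regulators, ROX1 included, 10 were lower in the A100 pair (median -0.62), while 10 were higher in the B100 pair (median 0.11), a number that was 5 with scaling to a common median. HAP4, the activating subunit of the Hap complex, was at -1.34 and -0.26, with 3563, 3257 and 3082 in the controls and 1399, 2723 and 2899 when treated. IXR1, an HMG-box protein known for binding DNA cross-linked by cisplatin and for repressing COX5B, was at -1.12 and 0.02. Of the DNA-binding Hap subunits, HAP2 was at -0.91 and 0.11, HAP3 at -0.50 and -0.30, and HAP5 at -0.62 and 0.31. SUT1, a regulator of sterol uptake, was at -0.67 and 0.06, and SPT23, an activator of the desaturase gene OLE1, at -0.66 and 0.15. The corepressor genes TUP1 and CYC8 were at -0.21 and -0.06 in A100 and at 0.67 and 0.07 in B100. The 3 regulators higher in A100 were MGA2 (0.57 and 0.46), ECM22 (0.48 and 0.16) and HAP1 (0.48 and 0.41, on the brightest of 3 probe sets, which all had positive values in both pairs). UPC2 and MOT3 were below the filter. HAP5, ROX1, HEM4, HEM15, CYT1 and SUT2 lie in the range of probe numbers described above. SUT2 is counted among the other genes known to rise without oxygen. Without the range 8 of 11 regulators were lower in A100. Of the heme synthesis genes 5 of 6 were then lower in A100, with a median of -0.56.

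Genes known to be activated by heme through Hap1 or the Hap complex had the sign of COX5A. Of 15 such genes, CYC1 and COX5A among them, 12 were lower in each 100 µg/ml pair (median -0.72 in A100 and -0.16 in B100), with 12 to 14 and 10 to 13 under the other settings. COX4, COX5A, COX6 and HEM1 were also counted among the oxidase subunit or heme synthesis genes above, so these lists are not independent. The cytochrome c1 gene CYT1 was at -1.34 and -0.13, the catalase T gene CTT1 at -1.17 and -0.31, and KGD1, of the tricarboxylic acid cycle, at -1.08 and -0.25. YHB1, a flavohemoglobin, was higher, at 0.88 and 0.85 on the brightest of its 4 probe sets, while another was at 0.48 and -0.18. QCR8 was counted as lower on the brighter of its 2 probe sets, at -0.26 and -0.54, while the other was at 0.34 and 0.1. The catalase A gene CTA1 differed in sign between the pairs, at -1.16 and 1.78, with controls of 963 (A100) and 238 (B100).

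Other genes known to rise without oxygen were split. Of 13 tested, 9 were higher in A100 (median 0.82) and 8 in B100 (median 0.15). The B100 split was close to that of all probe sets, and its median was 0.03 with quantile normalization and 0.01 with scaling to a common median. FRD1, a fumarate reductase, was at 0.89 and 0.45, with 868, 785 and 584 in the controls and 1625, 1079 and 595 when treated, so both 100 µg/ml arrays lay above all controls. The sterol transporter gene PDR11 was at 0.95 and 0.44 and the mannosyltransferase gene PMT5 at 1.04 and 0.57. AUS1, another sterol transporter gene, was at -0.24 and -0.23 on the brightest of its 6 probe sets, which all had negative values in A100. Of the oxygen-using sterol enzymes, ERG3 was at 1.63 and -0.02, ERG25 at 0.83 and 0.36 and ERG11 at 0.82 and 0.10. The hydroxymethylglutaryl-CoA reductases, another hypoxic and aerobic pair, did not separate as COX5B and COX5A did in the A100 pair, with HMG2, the hypoxic form, at -0.73 and -0.37 and HMG1 at -0.51 and -0.04. The desaturase gene OLE1 was at -0.33 and -0.28. None of the regulators, heme-activated genes or other hypoxic genes passed the test at 100 µg/ml.

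Likeness to ANB1, CYC7 and TIR1, the tested genes with the widest range over the 6 arrays (3.56, 2.39 and 1.67 on the log2 scale), was measured as the mean absolute difference of log2 values, each gene centred on its own mean over the 6 arrays, among 5661 probe sets with 1 gene name. The closest to ANB1 were HXK2, the hexokinase, PRM7 and the ribosomal protein gene RPL9A, each with a mean difference of 0.35. HXK2 had 796, 572 and 357 in the controls and 2676, 605 and 425 when treated. The closest to CYC7 were PER33 (0.08), ATG41 (0.13) and the RNA-binding protein gene NPL3 (0.15), and PER33 had controls of 3279 (A100), 2852 (B100) and 665 (10), and 653 when treated at 10 µg/ml. The closest to TIR1 were OSW2 (0.13), the polymerase delta subunit gene POL31 (0.14) and PAN6 (0.16). With 6 arrays and 5661 candidates, near matches are a description of these arrays.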

How the data were processed

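Signals of all 6 arrays were used. The intensity values, 1 linear signal per probe set, are those the authors deposited. The submitters' processing notes name MAS5, and its version and settings were not given in the sources used. Their 2% trimmed mean was 500.32 to 500.4 on every array, so no further scaling was done. The number of arrays limits the precision. Gene names come from the platform annotation (6504 of 9275 probe sets with 1 name, 328 with several, 2443 with none); 60 control probe sets were left out. A gene with several probe sets is represented by the one with the highest mean. limma 3.58.1 in R 4.3.3 fitted group means (variance trend, Benjamini-Hochberg adjustment over 6956 probe sets). The 1 array at 10 µg/ml was assumed to vary like the others. The code was run on simulated arrays with independent noise, the same SD for every probe set and no outlying array. That run therefore does not show what the fit could detect on these arrays. Python 3.11.15 made the descriptive values.

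The genes and lists were chosen with earlier results of these data known. Genes to be named were the 10 genes, all regulators, up to 4 further genes of each other list with the largest absolute mean of the 100 µg/ml pair differences, and 3 likest genes for each of 3 of the 10. KGD1, CTA1, OLE1, HMG1, HMG2, ERG11, ERG25, AUS1, DAN1, COX13, QCR8, HEM4 and SUT2 were named after their values were seen. Alternatives were quantile normalization, equal medians, a pseudocount of 1 or 64, keeping every probe set, a 50% filter, no variance trend, a threshold of 0.10, controls of the same experiment, the label as a block and each array left out.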

Additional observations from a re-analysis of the deposited data

Results flagged for a closer look

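In 5 of the 9 tested genes both pairs at 100 µg/ml had one sign and the pair at 10 µg/ml the other, and this difference between doses was not tested. Of all probe sets tested, 12.1% were positive in both 100 µg/ml pairs and negative in the 10 pair, and 13.4% were the reverse, so the pattern was common on these arrays. The mean of the A100 and B100 pairs minus the 10 pair (log2) was 1.89 for ANB1, 1.71 for TIR1, 1.22 for HEM13, 0.45 for COX5B and -0.59 for COX5A. The B100 value of COX5B and the 10 value of COX5A change sign with scaling to a common median. The doses were run in different experiments, whose controls differ, so dose and experiment cannot be told apart.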

How the results depend on the processing

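For the labels A100 and B100, treated and control arrays did not deviate together (A100 minus B100 correlated at r = -0.071 across 6956 probe sets). The label 10 did not enter this value. Its 2 arrays both lay above all 4 others at 19.6% of the probe sets and below them at 18.9%. With the label as a replicate block 0 probe sets passed at either dose. In that fit, as against the controls of its own experiment, CYC7 at 10 µg/ml turned from -1.49 to 0.0605. At 10 µg/ml the count of probe sets called was 0 to 4 as single arrays were left out, the 4 without the control of the 10 µg/ml experiment. At 100 µg/ml it was 0 under every alternative run. In the A100 pair 1 member (ROX1) was at least 2-fold lower with quantile normalization and 2 (ROX1 and COX5A) with a common median. In the 10 pair 1 (TIR1) was with either, where the values as deposited gave 0 in both pairs. Scaling to a common median moved the median of all probe sets in the A100 pair from 0.029 to -0.175. The isoform shift of CYC7 less CYC1 in the 10 pair was 0.106 with quantile normalization, and that between controls -3.32 with a pseudocount of 64. The cause of these moves was not tested. The A100 median of the cytochrome c list was 0.02 in place of -0.07 without probe numbers 7600 to 8500, an alternative chosen after seeing the data. The other 114 values of counts, isoform shifts and list medians stayed within the spread or within 1.5 times the count reported. For the isoform shifts the spread was the SD of the 2 pairs at 100 µg/ml, which leaving out 1 of these pairs cannot exceed. Without the treated A100 array the mean shift fell from 1.81 to 0.54 for ANB1 less HYP2. It fell from 0.93 to 0.32 for COX5B less COX5A. Of 259 alternative fold changes of the genes, 246 moved by less than the residual SD of the fit. This count does not show stability, since another filter or variance setting cannot change a fold change. The SD is also each gene's own. CYC7 at 100 µg/ml went from 0.73 to -0.04 against the controls of its own experiment and is still among the 246. Dim signals (AAC3) limit what can be read.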

Other observations

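Several oxygen-related genes outside the isoform pairs separated the 10 µg/ml experiment from the A100 and B100 arrays as CYC7 and CYC1 did. Such a separation was common on these arrays. Of the 6956 probe sets tested, 18.9% had both arrays labelled 10 below all 4 others and 19.6% had both above. The ferrochelatase gene HEM15 had control signals of 2074 (A100), 1866 (B100) and 371 (10), and the treated cultures had 1108, 1931 and 939. SUT1 had 1467, 979 and 191 in the controls and 914, 1023 and 264 when treated. CTT1 had 6217, 7949 and 836 in the controls. The sterol desaturase gene ERG3 had the opposite order, with 437, 359 and 2960 in the controls and 1387, 355 and 2410 when treated. These genes were chosen after their values were seen.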
